A study of Rattus norvegicus with 24 samples.

Results

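The subject is miR-204 and miR-211, a pair of closely related miRs whose arms were taken by name from the 758 rat miRs of the array. Every entry named miR-204 or miR-211, with or without an arm suffix, was included, which gave 4 of 758 miRs, namely miR-204-5p (rno-miR-204-5p on the array), miR-204-3p, miR-211-5p and miR-211-3p. Each was printed as 16 spots. The cells were INS1, an insulin-producing rat insulinoma line that models the β-cell but is a single transformed line. Total RNA enriched for miRs was labelled with Cy3 and hybridized to 1-colour Agilent miRNA arrays, 24 arrays in 8 groups of 3. The groups 6h_Ctrl and 24h_Ctrl held untreated cells. The groups 6h_Cyt and 24h_Cyt were exposed for 6 h and 24 h to a cytokine mix, 150 pg/ml of IL-1β together with 0.1 ng/ml of IFN-γ. In 6h_Giv_Cyt and 24h_Giv_Cyt the broad lysine deacetylase inhibitor Givinostat (125 nM) was added 1 h before the same cytokines, and in 6h_Giv_Ctrl and 24h_Giv_Ctrl it was given without cytokines. The series' own description calls the 3 arrays of a group technical replicates, so the p-values below measure the spread between these arrays only.

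A miR gene is transcribed as a hairpin, from which a 5p and a 3p arm are cut. The arm loaded into the silencing complex finds its target mRNAs mainly through its seed, the bases next to its 5′ end. In β-cells miR-204 is known as a miR that thioredoxin-interacting protein (TXNIP), a redox and glucose-responsive protein, induces, and that represses the transcription factor MafA and with it insulin production. miR-204 is produced from an intron of the cation channel gene Trpm3, and miR-211 from its relative Trpm1, a gene best known from melanocytes and retina. In the RefSeq annotation (GRCr8) Mir204 lay within Trpm3 and Mir211 within Trpm1, both on chromosome 1.

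The mature sequences are shown first, because the seed and a single base decide what each probe can tell apart. All 4 arms were matched by name to the RefSeq entries (GRCr8), and the seed (bases 2 to 8) is in capitals.
miR-204-5p: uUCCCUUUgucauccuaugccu
miR-211-5p: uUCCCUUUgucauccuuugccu
miR-204-3p: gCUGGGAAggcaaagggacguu
miR-211-3p: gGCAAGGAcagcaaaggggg

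The 5p arms shared their seed with each other and with no other of the 693 mature miRs in the table. They were identical at 21 of 22 positions and differed at A17U, counted from 1 at the 5′ end with the base of miR-204-5p first. The 3p arms differed from them and from each other in their seeds, and no other mature miR of the table carried either of these seeds. The hairpins are given with both arms in capitals, to show where the measured arms lie.
Mir204: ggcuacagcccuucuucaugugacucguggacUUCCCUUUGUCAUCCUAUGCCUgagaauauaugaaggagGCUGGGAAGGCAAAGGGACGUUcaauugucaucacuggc
Mir211: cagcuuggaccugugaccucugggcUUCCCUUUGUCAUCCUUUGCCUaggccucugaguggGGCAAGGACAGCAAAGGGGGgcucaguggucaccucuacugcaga

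The array read each arm through several probes that differed in length at one end. The probes to the 5p arms are printed as deposited, 5′ to 3′, and the capital marks the base opposite position 17, the only place where the arms differ.
miR-204-5p, 20-base probe: aggcaTaggatgacaaaggg
miR-204-5p, 19-base probe: aggcaTaggatgacaaagg
miR-211-5p, 19-base probe: aggcaAaggatgacaaagg
miR-211-5p, 20-base probe: aggcaAaggatgacaaaggg
miR-211-5p, 21-base probe: aggcaAaggatgacaaaggga

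For miR-204-5p, 8 spots carried the 20-base probe, which covers bases 3 to 22, and 8 spots carried the 19-base probe, which covers bases 4 to 22. The array design mapped them to chr1:226013029-226013047 and chr1:226013030-226013047 (rn4). For miR-211-5p, 6, 5 and 5 spots carried probes of 19, 20 and 21 bases, the longest mapped to chr1:118642426-118642445 (rn4). The 3p arms were read through shorter probes, of 13 to 16 bases for miR-204-3p and of 13 and 14 bases for miR-211-3p. The full complement of each probe was found in no other mature miR of the RefSeq table. Cross-binding between the 5p arms, whose probes of equal length differ at 1 base, was not tested by these arrays.

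miR-204-5p was the only arm measured on every array. The scanner marks each spot as well above background or not, and 8 marked spots of 16 were required here for a miR to count as such. miR-204-5p reached this on 24 of 24 arrays, miR-211-3p on 10, miR-211-5p on 3 and miR-204-3p on none. The 3 arrays for miR-211-5p were 24h_Giv_Cyt replicate 1, with 16 marked spots, and 24h_Cyt replicates 1 and 3, with 10 each. The 10 arrays for miR-211-3p held all 3 of 24h_Cyt, all 3 of 24h_Giv_Cyt, 2 of 24h_Ctrl and 1 each of 6h_Ctrl and 6h_Giv_Ctrl. For miR-204-3p, the passenger arm of the same hairpin as miR-204-5p, 0 of 16 spots was marked on any array.

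The detection of miR-204-5p rested on 1 of its 2 probes. The 20-base probe was well above background in 192 of 192 spots. The 19-base probe, which lacks the base opposite position 3 of the miR, reached it in 74 of 192 spots, with all 8 spots on 4 arrays and none on 8. Those 4 arrays were the 3 of 24h_Cyt and 24h_Giv_Cyt replicate 1. On all 24 arrays the deposited value of miR-204-5p lay above every 19-base spot and below every 20-base spot, since it is the median over both probes. The spread over the 16 spots of an array (median SD 0.605 log2) was accordingly far wider than that within the 20-base probe (0.0854) or the 19-base probe (0.0692).

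**Figure D1:**
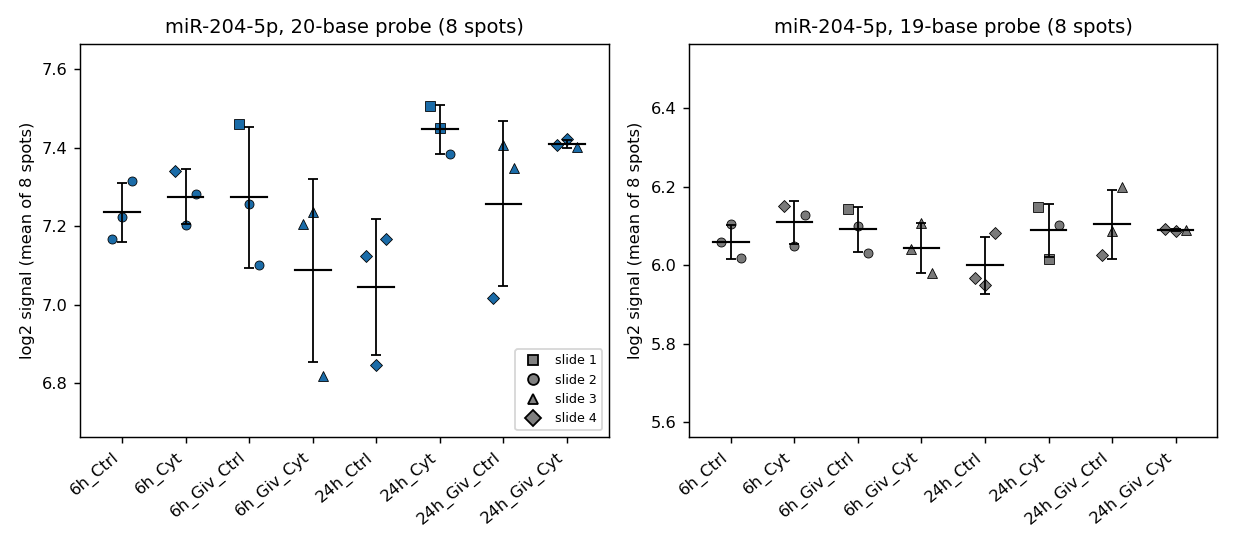
Log2 signal of miR-204-5p in each of the 8 groups, read with the 20-base probe (left) and the 19-base probe (right), each point 1 array, marker shape its slide, bars mean ± SD of 3 arrays. Both y axes span 1 log2 unit; the 20-base probe ranged from 6.82 to 7.51 over the 24 arrays and the 19-base probe from 5.95 to 6.20.

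The arrays differed in brightness, which bears on every value below. The 75th percentile of the scanner's processed intensity, taken over the 117 miRs detected in the whole series, lay between 271 and 347 in 24h_Ctrl and between 596 and 1003 in 24h_Cyt, the brightest group. It lay between 487 and 571 in 24h_Giv_Cyt and between 279 and 682 in the other groups. The median intensity of the negative control spots was 45 to 61 on all arrays. The arrays were on 4 slides. Slide 1, scanned on another day than the rest, held 24h_Cyt replicates 1 and 2 and 6h_Giv_Ctrl replicate 1, and 24h_Cyt and 24h_Ctrl shared no slide. In bulk RNA of this kind, fewer cells and less RNA per cell cannot be told apart.

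The level of miR-204-5p is given as the log2 of the quantile-normalized signal, averaged over the 16 spots. Over 24 arrays it ran from 6.40 to 6.83, with a median of 6.68. In 24h_Ctrl the 3 arrays read 6.55, 6.40 and 6.62. In 24h_Cyt they read 6.83, 6.73 and 6.74. All 3 arrays with 24 h of cytokines lay above all 3 untreated arrays of that time. In 24h_Giv_Ctrl the signals were 6.52, 6.75 and 6.77. In 24h_Giv_Cyt they were 6.75, 6.75 and 6.75, the tightest group of the series (SD 0.004). The 24h_Giv_Ctrl arrays thus spanned both the level of 24h_Ctrl and that of the cytokine-treated groups.

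At 6 h the groups lay between these levels and overlapped. The arrays read 6.61, 6.66 and 6.67 in 6h_Ctrl and 6.75, 6.62 and 6.71 in 6h_Cyt. In 6h_Giv_Ctrl the signals were 6.80, 6.68 and 6.57. In 6h_Giv_Cyt they were 6.62, 6.67 and 6.40. The last of these was, with 24h_Ctrl replicate 2, 1 of the lowest readings of all 24 arrays. Ordered from low to high, the group means were 6.52 ± 0.11 in 24h_Ctrl, 6.57 ± 0.15 in 6h_Giv_Cyt, 6.65 ± 0.03 in 6h_Ctrl, 6.68 ± 0.14 in 24h_Giv_Ctrl, 6.68 ± 0.12 in 6h_Giv_Ctrl, 6.69 ± 0.06 in 6h_Cyt, 6.75 ± 0.004 in 24h_Giv_Cyt and 6.77 ± 0.05 in 24h_Cyt (SD, n = 3). No pair of neighbours in this order was separated by more than the SD pooled over the groups, 0.0965, the widest gap being 0.0825, between 6h_Giv_Cyt and 6h_Ctrl.

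**Figure D2:**
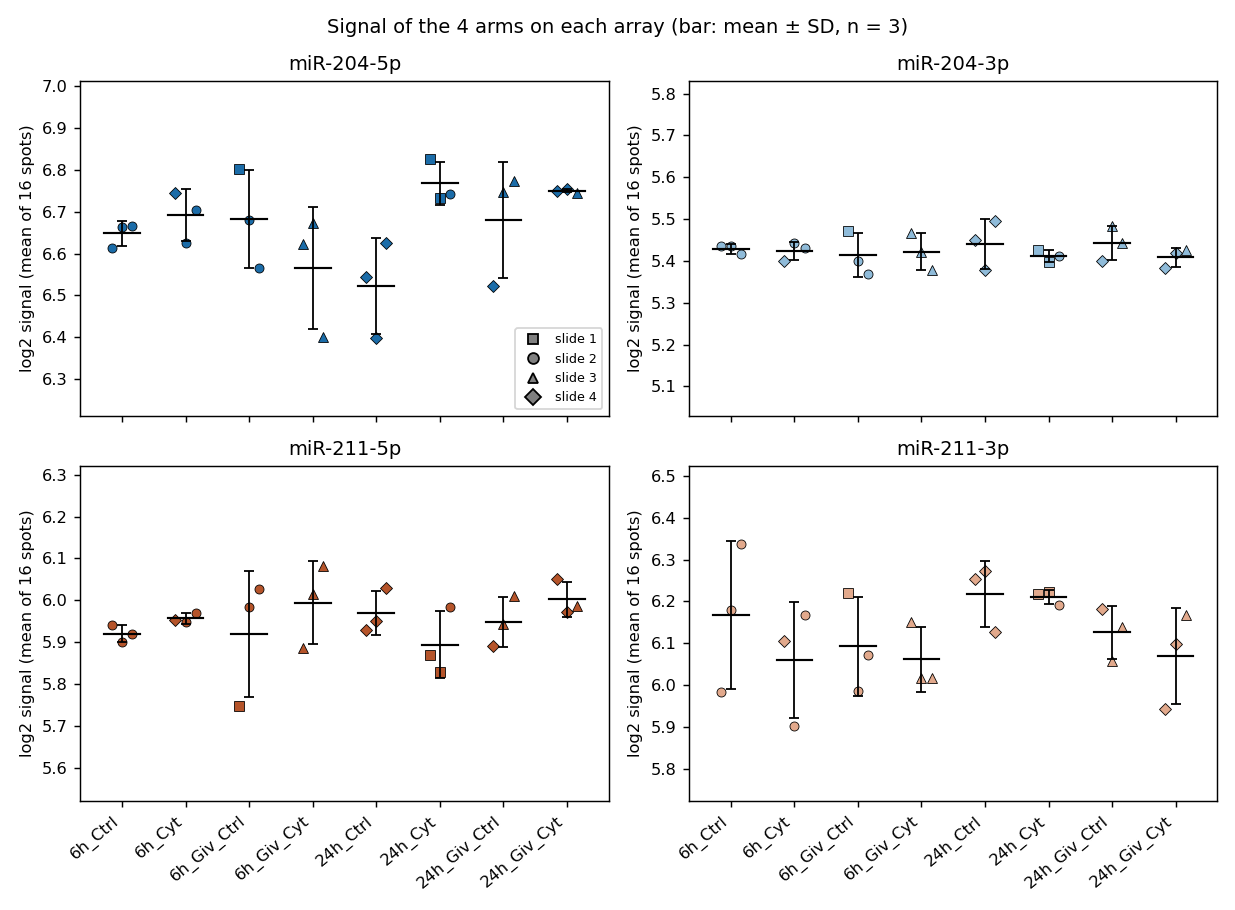
Log2 signal of the 4 arms (mean of 16 spots) by group, each point 1 array, marker shape its slide, bars mean ± SD of 3 arrays; each y axis spans 0.8 log2 units. miR-204-5p is lowest in 24h_Ctrl (mean 6.52) and highest in 24h_Cyt (mean 6.77), while miR-204-3p stays between 5.37 and 5.49 on all arrays.

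The 12 pairwise comparisons of the design were tested with limma, and a miR was called at a Benjamini-Hochberg adjusted p below 0.05 and an absolute log2 fold change above 0.1375, which is a fold change of 1.1. miR-204-5p showed its largest difference after 24 h of cytokines. In 24h_Cyt vs 24h_Ctrl its log2FC was 0.25 (SE 0.0757, 95% interval 0.09 to 0.40), with an adjusted p of 0.0637 by limma, so it was not called. In that comparison 4.09% of all 758 miRs were called, and miR-204-5p stood at rank 55 by p. Leaving out 1 array at a time gave 0.18 to 0.30 (adjusted p 0.0342 to 0.224), and the call was reached without 24h_Ctrl replicate 3, 24h_Giv_Ctrl replicate 1, 6h_Giv_Ctrl replicate 1 or 6h_Giv_Cyt replicate 3. Arrays that did not overlap, with 24h_Cyt higher, were seen for 16.4% of all miRs, and a higher level with an unadjusted p below 0.05 for 8.71%. The median log2FC over all miRs was -0.0109, and over the 168 miRs detected throughout 1 or more groups it was -0.0039.

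Read with the 20-base probe alone, the difference was wider. In 24h_Ctrl this probe read 7.12, 6.85 and 7.17, and in 24h_Cyt 7.51, 7.45 and 7.38, so again no array of one group reached the other. How many probe sequences did the same was not counted, and among all miRs it was 16.4% with 24h_Cyt higher. The log2FC was 0.40 (SE 0.114), with a limma adjusted p of 0.0617 over the 1806 probe sequences of the array, of which 3.16% were called. The 19-base probe was well above background (at least 4 of 8 spots) on all 3 arrays of 24h_Cyt and on none of 24h_Ctrl. The bound on its fold, taken from the group means, was 1.05 with 24h_Cyt higher. That bound takes no account of the spread between arrays, and the arrays of these groups overlapped for this probe. The limma interval of its log2FC, from -0.01 to 0.19 (adjusted p 0.362), also allowed no rise. In such a bound, an untreated array counts at its own signal or at that of the dimmest miR well above background on it, whichever is higher. A choice of 1 probe was made with the values in view, so the 20-base result is a description of the same arrays and not a second line of evidence.

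The call, close to its threshold, changed with the background correction and the scaling as well as with single arrays. With the scanner's processed intensity, which is background-subtracted, scaled by that brightness to a common level, miR-204-5p read 45.1, 43.9 and 52.3 in 24h_Ctrl and 69.2, 73.0 and 69.5 in 24h_Cyt. The log2FC was then 0.59 (SE 0.121) with a limma adjusted p of 0.00178. On that scale 20.3% of the 375 miRs tested were called. The 20-base probe alone gave 0.64 there (adjusted p 0.00135), where 15.7% of 885 probe sequences were called. With the processed intensity scaled by all miRs instead of the detected ones, miR-204-5p was not called. With normexp background correction miR-204-5p also passed, at 0.21 (limma adjusted p 0.0459), with 3.3% of all miRs called. That setting started from the mean foreground and kept the quantile normalization of the reported fit. Without any normalization the log2FC was 0.92 and 22.8% of all miRs were called, where the median of the 168 detected miRs was itself 0.70 without it. With the brightness of each array as a covariate, added after the values were seen, the log2FC was -0.03 (adjusted p 0.901), and 0.396% of all miRs were then called. Every 24h_Cyt array was brighter than every 24h_Ctrl array, so within this comparison brightness and treatment cannot be told apart.

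**Figure D3:**
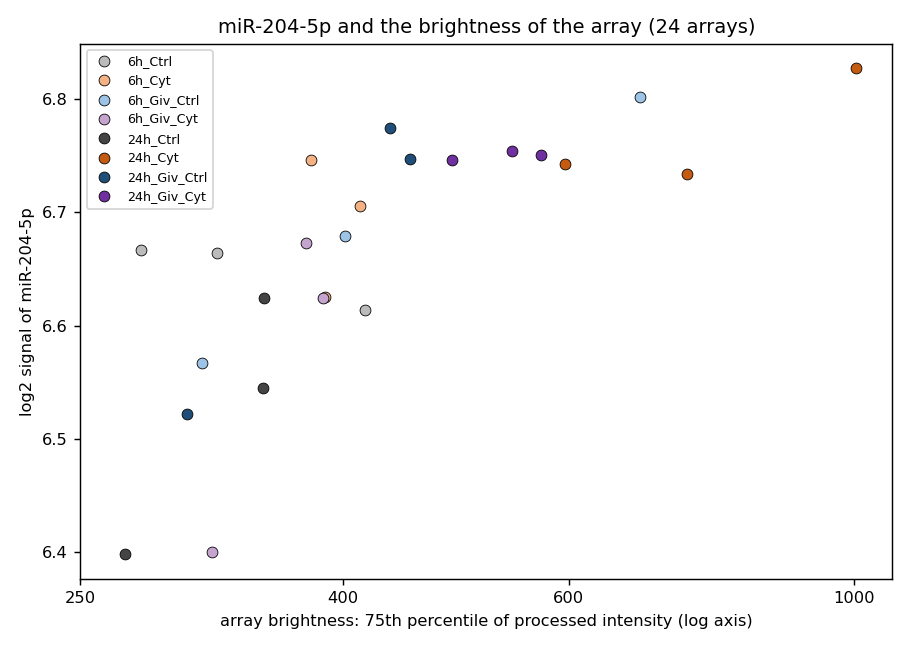
Log2 signal of miR-204-5p (y axis) against the brightness of the array, the 75th percentile of processed intensity of the detected miRs (x axis, log scale), for 24 arrays coloured by group. The 3 arrays of 24h_Cyt are among the brightest, at 596 to 1003, and read 6.73 to 6.83; the 3 of 24h_Ctrl, at 271 to 347, read 6.40 to 6.62.

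The slide did not lend itself to a within-slide check of this comparison, since no slide held both groups. Without slide 1 the log2FC was 0.22 (SE 0.106, adjusted p 0.542), from the single 24h_Cyt array left. With slide as a fixed block it was 0.25 (SE 0.139, adjusted p 0.695). The first value has no spread of its own in 24h_Cyt and the second is an indirect estimate through the other groups. For these groups slide is partly confounded with treatment, and its part in the result was not tested.

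**Figure D4:**
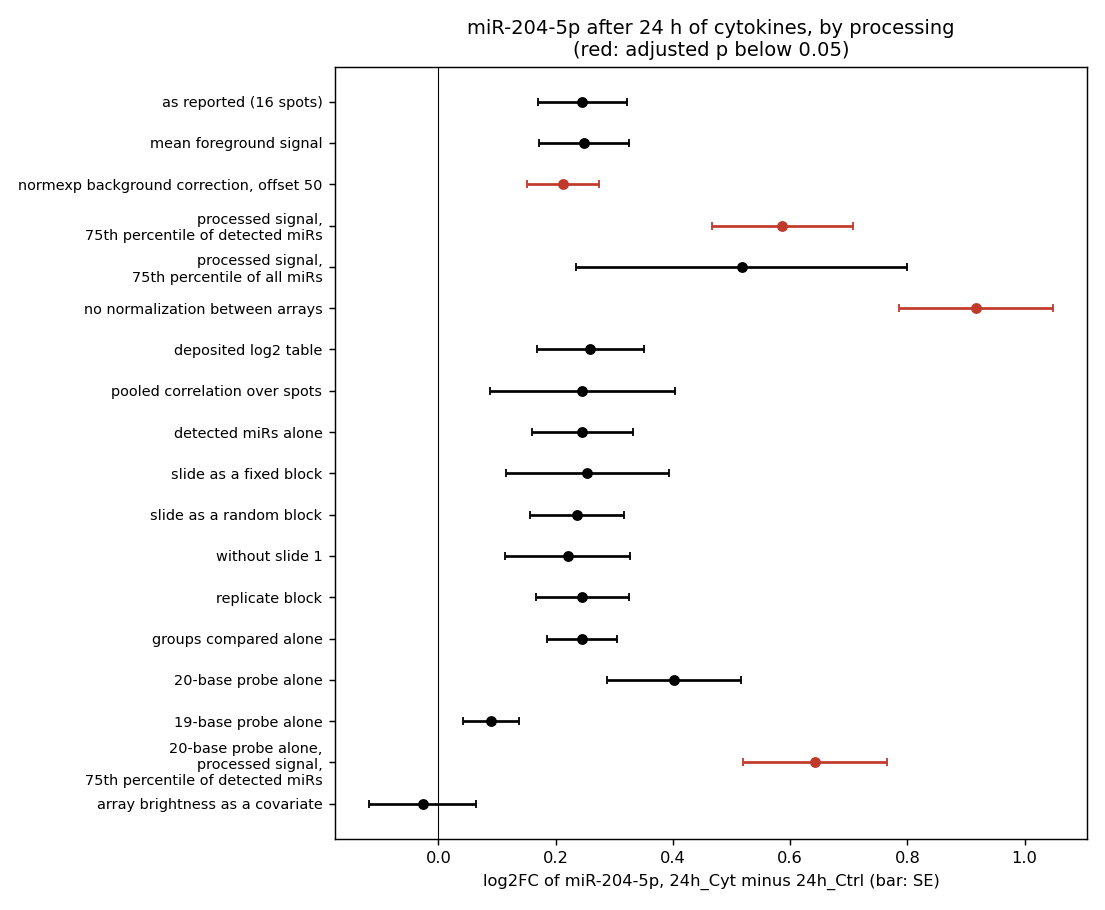
Log2FC of miR-204-5p in 24h_Cyt vs 24h_Ctrl (x axis) with its SE under each way of processing or testing the arrays (rows); red marks an adjusted p below 0.05. The value runs from -0.03 with array brightness as a covariate to 0.92 without normalization; it is 0.25 as reported.

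Cytokines for 6 h left miR-204-5p within the spread of the arrays. In 6h_Cyt vs 6h_Ctrl the log2FC was 0.04 (95% interval -0.12 to 0.20, adjusted p 0.999), and 0% of all miRs were called there. Set directly against each other, the 24 h effect exceeded that of 6 h by 0.20 (SE 0.107, adjusted p 0.623 by limma), so it was not shown that the effect depended on time. In that test 0.528% of all miRs were called. Within slide 2, which held 2 arrays of 6h_Cyt and all 3 of 6h_Ctrl, the 6 h difference was 0.02.

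With Givinostat given before the cytokines, miR-204-5p was not called against cytokines alone at either time, and the arrays overlapped. In 24h_Giv_Cyt vs 24h_Cyt the log2FC was -0.02 (95% interval -0.18 to 0.14, adjusted p 0.980), where 0.132% of all miRs were called. In 6h_Giv_Cyt vs 6h_Cyt it was -0.13 (95% interval -0.29 to 0.03, adjusted p 0.926), where 0% were called. Neither interval shows that the groups were alike, since each still allows a change larger than the threshold.

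Givinostat without cytokines was followed by a higher mean at 24 h. In 24h_Giv_Ctrl vs 24h_Ctrl the log2FC was 0.16 (SE 0.0757, adjusted p 0.992 by limma), with 0% of all miRs called. The groups overlapped, and the difference came from the 2 arrays of 24h_Giv_Ctrl on slide 3. Within slide 4, which held the remaining 24h_Giv_Ctrl array and all of 24h_Ctrl, the difference was -0.0003. At 6 h the log2FC in 6h_Giv_Ctrl vs 6h_Ctrl was 0.03 (adjusted p 0.981, 0% called), and within slide 2 it was -0.03.

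Cytokines in the presence of Givinostat gave small differences of opposite sign at the 2 times. In 24h_Giv_Cyt vs 24h_Giv_Ctrl the log2FC was 0.07 (95% interval -0.09 to 0.23, adjusted p 0.652), where 0.528% of all miRs were called. The slides disagreed, with a difference of -0.01 within slide 3 and of 0.23 within slide 4. In 6h_Giv_Cyt vs 6h_Giv_Ctrl it was -0.12 (95% interval -0.28 to 0.04, adjusted p 0.998, 0% called). The cytokine effect with minus without Givinostat was -0.18 at 24 h (SE 0.107, adjusted p 0.898) and -0.16 at 6 h (SE 0.107, adjusted p 0.999), and in both tests 0% of all miRs were called.

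Over time, the difference farthest from its error was under Givinostat and cytokines. In 24h_Giv_Cyt vs 6h_Giv_Cyt the log2FC was 0.18 (95% interval 0.03 to 0.34, adjusted p 0.400 by limma), and all 3 arrays at 24 h lay above all 3 at 6 h. There 0.396% of all miRs were called, and non-overlapping arrays with the later time higher were seen for 4.88%, a higher level with an unadjusted p below 0.05 for 3.17%. The only shared slide, slide 3, gave 0.18 from 1 array against 3. In 24h_Cyt vs 6h_Cyt the log2FC was 0.08 (adjusted p 0.773, 0.792% called). Untreated cells gave -0.13 in 24h_Ctrl vs 6h_Ctrl (95% interval -0.28 to 0.03, adjusted p 0.850, 0% called), and Givinostat alone gave -0.001 (adjusted p 1.000, 0% called). In the 7 comparisons with no miR called, 3.17% to 5.15% of all miRs fell below an unadjusted p of 0.05, and the study's test on pooled spots (given with miR-211-3p) called 0% to 2.77%. miR-204-5p passed an unadjusted p below 0.05 in 2 of 12 comparisons, the adjusted limma test on array means in none, and the test on pooled spots in none. The pooled test counts the gap between the probes of miR-204-5p as spread (median SD 0.605 log2 over 16 spots). It therefore had little room to call this miR, and no conclusion is drawn from its outcome. The 12 comparisons share groups, so their values are not independent of each other.

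**Figure D5:**
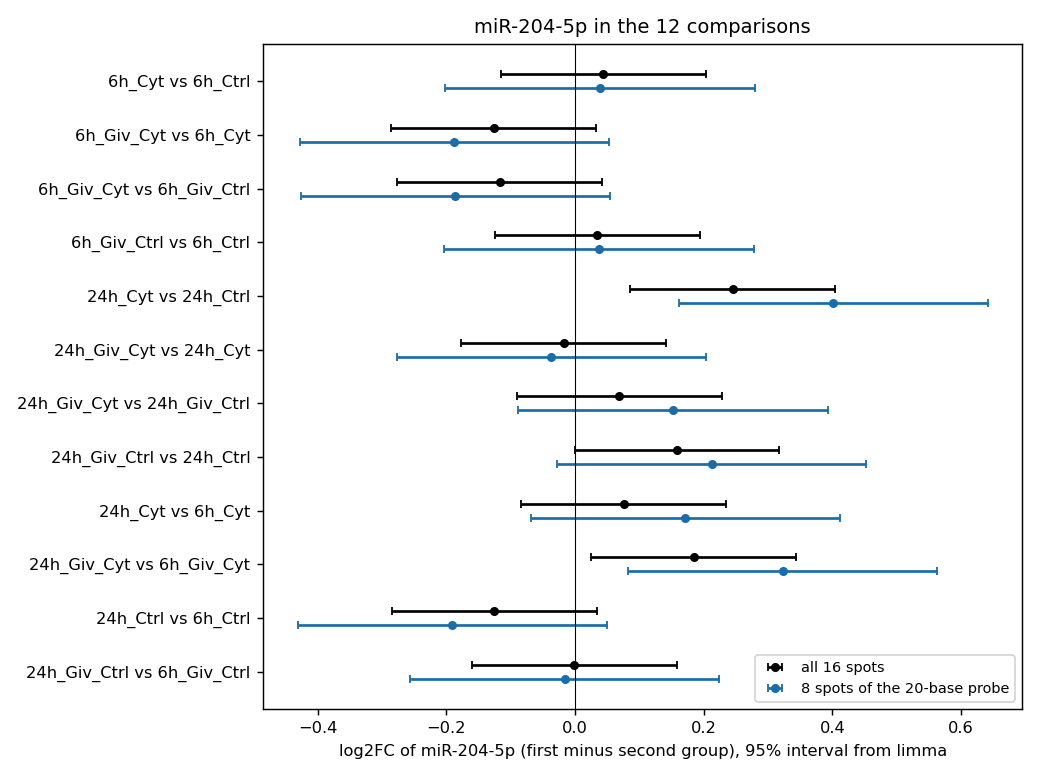
Log2FC of miR-204-5p (x axis, first minus second group) with its 95% interval from limma in the 12 comparisons (y axis), over all 16 spots (black) and over the 8 spots of the 20-base probe (blue). The interval lies wholly above 0 in 24h_Cyt vs 24h_Ctrl (0.09 to 0.40) and in 24h_Giv_Cyt vs 6h_Giv_Cyt (0.03 to 0.34) with all 16 spots.

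miR-211-5p, which shares the seed of miR-204-5p, stayed near background. Its log2 signal ran from 5.75 to 6.08 over 24 arrays, and the dimmest miR well above background on an array read between 5.73 and 6.12. On 7 arrays none of its 16 spots was marked. The arrays read 5.93, 5.95 and 6.03 in 24h_Ctrl and 5.87, 5.83 and 5.98 in 24h_Cyt, so its groups overlapped where those of miR-204-5p did not. The adjusted p of 24h_Cyt vs 24h_Ctrl was 0.476. No fold is given there, because no array of 24h_Ctrl was well above background and the bound fell under 1. The arrays of 6h_Cyt lay above those of 6h_Ctrl, with no array of either group well above background. Arrays that did not overlap were seen there for 5.67% of all miRs. In 24h_Giv_Cyt vs 24h_Cyt, the only comparison with arrays well above background on both sides, the log2FC was 0.11 (SE 0.0606, limma adjusted p 0.967).

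miR-211-3p was well above background on every array of 24h_Cyt and 24h_Giv_Cyt and on 4 of the other arrays, while its normalized signal was no higher in these groups than in 24h_Ctrl. Those are also the groups with the highest median brightness, 742 and 542, whose part in the marking was not tested. Its signals were 6.25, 6.27 and 6.13 in 24h_Ctrl, 6.22, 6.22 and 6.19 in 24h_Cyt, and 5.94, 6.10 and 6.17 in 24h_Giv_Cyt. All 3 arrays of 24h_Giv_Cyt were below all 3 of 24h_Cyt, as for 16.6% of all miRs in either direction, with a log2FC of -0.14 (SE 0.0851, adjusted p 0.967 by limma). In 24h_Cyt vs 6h_Cyt its arrays did not overlap either. With no array of 6h_Cyt well above background, only a bound on the fold is given, 1.11 from the group means with 24 h higher. That bound takes no account of the spread between arrays. The limma interval of the log2FC, from -0.03 to 0.33 (adjusted p 0.481), also allowed no rise. 24h_Giv_Cyt vs 24h_Cyt and 24h_Cyt vs 6h_Cyt gave the members' only calls under the study's own way of pooling spots. There the 16 spots enter the test together with 1 correlation for all miRs, 0.0373. In this test miR-211-3p had an adjusted p of 0.000485 in the first and 6.33e-05 in the second comparison. That test called 3.17% and 2.37% of all miRs in them. Arrays that did not overlap in either direction were seen for 21.8% of all miRs in the second. In 24h_Cyt vs 24h_Ctrl the log2FC of miR-211-3p was -0.01 (adjusted p 0.965).

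miR-204-3p read between 5.37 and 5.49 on all 24 arrays, and its mean processed intensity lay below 0 on each, at -6.14 to -0.07. With no array well above background, no fold is given for it. Over 12 comparisons its lowest adjusted p was 0.614. The 4 arms were thus called in none of the 12 comparisons and 3 interaction tests on the array means.

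The miRs whose log2 signal followed that of miR-204-5p most closely over the 24 arrays were miR-96-5p (Pearson r = 0.92), miR-29a-3p (0.88), miR-21-5p (0.88), miR-30c-5p (0.88) and miR-29c-3p (0.87), out of 116 other miRs above background on every array. The median r of these 116 was 0.08 and the lowest was -0.81. All 5 were called higher in 24h_Cyt vs 24h_Ctrl, with log2FC of 0.71, 0.76, 0.57, 0.27 and 0.72, where 4.09% of all miRs were called. They were chosen for following miR-204-5p over the same arrays, these groups included, so their calls there are a description and support nothing. These arrays share their treatment, slide and brightness with each other, so the likeness describes the arrays. miR-211-5p did not follow miR-204-5p (r = -0.30), and the probes of miR-204-5p followed each other with r = 0.69.

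miRs tied to TXNIP besides miR-204 are the miR-200 family, with its members miR-141-3p and miR-429, and the neuronal miR-124-3p. Of these 6 miRs, 0 were called by limma in 24h_Cyt vs 24h_Ctrl, while 2 higher and 2 lower had an unadjusted p below 0.05. Over all 758 miRs of this comparison 4.09% were called and 23.7% had an unadjusted p below 0.05 in either direction. The median log2FC of the 6 was -0.02, and 3 were well above background on no array. Among these 3, miR-200b-3p nevertheless had a mean processed intensity of 64.6, while its log2 signal lay between 5.46 and 5.61. The reason for this conflict was not tested. The largest differences were in miR-141-3p (log2FC 0.47, SE 0.209, adjusted p 0.181) and miR-124-3p (log2FC 0.25, SE 0.116, adjusted p 0.209). Neither passed the test, as miR-204-5p itself did not.

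Among 9 miRs known to act on insulin or MafA expression, 0 were called higher and 1 lower in that comparison, with a median log2FC of 0.08, while 2 higher and 2 lower had an unadjusted p below 0.05, beside 4.09% called and 23.7% below that p over all miRs. The one called was miR-182 (log2FC -0.19, SE 0.0354, adjusted p 0.00364), a miR of the sensory and neuroendocrine miR-183 cluster. The largest differences among the others were in the islet miR miR-375-3p (log2FC -0.30, adjusted p 0.131) and in miR-148b-3p (log2FC 0.30, adjusted p 0.189). In 24h_Giv_Cyt vs 24h_Cyt and in all 6 h comparisons between treatments, none of the 6 or the 9 miRs was called.

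The line carried the miRs of an endocrine cell. Of 8 β-cell and neuroendocrine miRs, 5 were well above background on all 24 arrays. In 24h_Cyt vs 24h_Ctrl 1 of them was called higher, miR-96-5p, and 1 lower, miR-182, beside 4.09% of all miRs called. Of 13 miRs of liver, muscle, blood cells and acinar pancreas, 11 were well above background on no array. The muscle miR miR-206-3p alone was so on all 24. The summed processed intensity of these 13, not scaled for brightness, was 58.6 to 77.4 in 24h_Ctrl and 117 to 186 in 24h_Cyt. That of the 8 endocrine miRs was 2876 to 3978 and 6354 to 10291. The brightness of the arrays itself was 271 to 347 and 596 to 1003 in these groups. The myeloid miR-223-3p was called lower in 24h_Cyt (limma adjusted p 0.0175) while well above background on no array, so no fold is given. The part of other cells in the values of miR-204-5p was not tested.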

How the data were processed

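INS1 RNA from 8 groups of 3 was read on 24 arrays. The deposited scanner files hold spot intensity (Agilent Feature Extraction 10.7.3.1 per the file headers, 9.1 per the submitters' processing notes; probe positions on rn4). The authors also deposited 1 log2 value per miR and array, which equals, within 4.94e-09, the median over 16 spots of the steps that follow. Here the median foreground intensity was used with no background correction. Control spots were removed, leaving 12128 spots, which were quantile-normalized and log2-transformed and then averaged over the 16 spots of each miR. limma 3.58.1 (R 4.3.3) fitted 8 group means to all 24 arrays, without a block, with Benjamini-Hochberg adjustment over 758 miRs. The study's methods test the spots with a pooled correlation, which served as an alternative, because spots of an array share their RNA. There were no saturated spots among the miRs, and the number of arrays limits the precision.

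The members, lists and alternatives were chosen with earlier results of these data known. Named besides the 4 arms are the 5 miRs most like miR-204-5p and, in each list, the miRs called and the 2 with the largest differences in 24h_Cyt vs 24h_Ctrl. miR-206-3p was named after its values were seen. The tests were checked on simulated arrays with planted changes and independent noise, without differences in slide or brightness. That check does not bear on differences tied to either. Alternatives changed the signal, background correction, scaling, spot test, filter, slide, replicate block, samples and probe. On the scaled processed intensity, a floor of 4.44 was set, and miRs at it on every array were not tested. That exclusion was made after the results had been seen, because rounding differences had given such miRs p-values; before it, miR-204-5p had passed the test in further comparisons on this scale. The replicate numbers come from the sample titles. Same-numbered arrays deviated together (every r above 0.1) in 2 of 12 comparisons, 24h_Cyt vs 24h_Ctrl and 24h_Cyt vs 6h_Cyt.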

Additional observations from a re-analysis of the deposited data

How the results depend on the processing

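For 24h_Cyt vs 24h_Ctrl, miR-204-5p was higher under 16 of 17 alternatives to the reported fit. It passed the limma test (adjusted p below 0.05) at log2FC 0.21 with normexp background correction, 0.59 with the processed signal scaled to detected miRs, 0.64 with the 20-base probe on that scale, and 0.92 without normalization, and it was -0.027 with array brightness as a covariate. With the processed signal scaled to all miRs it was not called. The brightness covariate and the single-probe settings were chosen after seeing the data. With 1 array left out it ran from 0.18 to 0.30 (adjusted p 0.0342 to 0.224), and it passed without 24h_Ctrl replicate 3, 24h_Giv_Ctrl replicate 1, 6h_Giv_Ctrl replicate 1 or 6h_Giv_Cyt replicate 3. Same-numbered arrays deviated together in this comparison, and with the replicate block it stayed at 0.25 (adjusted p 0.0790), and the block changed no other call.

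Without normalization 24h_Giv_Cyt vs 24h_Giv_Ctrl (0.48), 24h_Cyt vs 6h_Cyt (0.62), 24h_Giv_Cyt vs 6h_Giv_Cyt (0.54) and the 24 h minus 6 h cytokine effect (0.78) also passed. In these pairwise comparisons, in this order, 42.6%, 16.1% and 2.77% of all miRs were called without normalization. The median log2FC of the detected miRs was itself 0.43, 0.61 and 0.38 there. No such share was computed for the 24 h minus 6 h effect. The sign also turned, with no call, in the comparisons that follow. For 24h_Giv_Ctrl vs 6h_Giv_Ctrl this gave 0.013 (mean foreground), 0.017 (normexp), 0.10 (processed signal, all miRs), 0.0053 (deposited values), 0.058 (without slide 1), 0.013 (19-base probe) and 0.036 (brightness). For 24h_Giv_Cyt vs 24h_Cyt it gave 0.12 (processed signal, detected miRs), 0.0073 (without slide 1), 0.0012 (19-base probe), 0.091 (20-base probe, processed signal) and 0.095 (brightness). For 24h_Giv_Cyt vs 24h_Giv_Ctrl it gave -0.18 (processed signal, all miRs), -0.014 (19-base probe) and -0.028 (brightness), and slide 4 alone gave 0.23. For 6h_Giv_Ctrl vs 6h_Ctrl it gave -0.0016 (slide as a fixed block), -0.025 (without slide 1) and -0.052 (brightness), and for 24h_Cyt vs 6h_Cyt -0.020 (19-base probe) and -0.13 (brightness). Brightness also turned 6h_Cyt vs 6h_Ctrl (-0.0069) and the 24 h minus 6 h effect (-0.020), and 24h_Giv_Ctrl vs 24h_Ctrl moved to -0.00032 within slide 4. With 1 array left out, 24h_Giv_Cyt vs 24h_Giv_Ctrl ran from -0.010 to 0.12, 24h_Giv_Ctrl vs 6h_Giv_Ctrl from -0.059 to 0.078, 24h_Giv_Cyt vs 24h_Cyt from -0.035 to 0.012 and 6h_Giv_Ctrl vs 6h_Ctrl from -0.025 to 0.092. The cause of these changes was not tested.

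With 3 arrays a group, the intervals of miR-204-5p are wide beside its differences. The 19-base probe, miR-204-3p and miR-211-5p lie at or near background, which limits what can be said of them.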
